A study of Mus musculus with 12 samples.

Results

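The genes described here belong to the response of cells to interferons: Uba7, Mndal, Isg15, Ifit1, Ifit3, Irf7, Usp18, Bst2 and Ifitm3. They were read on Affymetrix arrays of mouse brain, hindbrain and spinal cord, taken as every probe set whose platform annotation gave a single symbol among these 9 genes, each kept on its own. That gave 11 of 45101 probe sets, for 8 of the 9 genes. Uba7 had 3 probe sets, Mndal had 2, and Ifit1, Ifit3, Irf7, Usp18, Bst2 and Ifitm3 had 1 each. Isg15 had no probe set of its own, since its only probe set also carries the symbol Gm9706, and that probe set is given separately. Uba7 was chosen by its difference between knockout and wild type, and Mndal was selected with its measured values in view, taken here to cover both its age and its genotype difference. Their values in those comparisons are therefore a description, and no test of them is read as a result.

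The samples came from NR3B knockout mice at postnatal day 5 (P5), wild-type mice at P5, NR3B knockout mice at birth (P0) and wild-type mice at P0, with 3 samples in each of the 4 groups. Grin3b is the gene of NR3B, a subunit of NMDA receptors. Strain, deleted part and animals per sample are not stated in the labels, which also name no treatment. Nothing in the labels says that samples are separate animals, and the spread behind each p-value may thus be partly technical. In tissue taken whole, fewer cells of a type and less RNA per cell cannot be told apart.

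As a check of the labels, the Grin3b probe set read 44.5 ± 4.44 in P5 knockout against 199 ± 64.8 in P5 wild type, and 55.7 ± 35.9 in P0 knockout against 285 ± 79.3 in P0 wild type (signal, mean ± SD, n = 3 each). Median signals of the arrays lay between 607.1 and 737.1. The tissue label was met by bright neuronal and glial markers, with Snap25 and Mbp above the 99th percentile of all probe sets. P0 wild-type sample 1 stood apart, since its 18S rRNA probe set read 3618, where the remaining arrays read 22789 to 61945. P0 wild-type sample 2 stood apart too, with a summed signal of 7 choroid plexus markers of 18901, against 144392 and 156779 in samples 1 and 3 of its group, and with the lowest weight of the 12 arrays (0.362 in limma). The choroid plexus sum was also low in P0 knockout sample 2, at 56526 against 123308 and 166702 in samples 1 and 3 of that group. Within groups the typical log2 SD of a brighter probe set was 0.16 for P5 knockout, 0.14 for P5 wild type, 0.25 for P0 knockout and 0.28 for P0 wild type.

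Interferons are secreted proteins that bind receptors on the cell surface and, through kinases attached to them, activate transcription factors. These bind a DNA element, the interferon-stimulated response element, in front of a large set of genes whose products detect and restrict viruses. Isg15 is a ubiquitin-like protein that is attached to other proteins after activation by Uba7 and is removed again by Usp18. In the healthy brain most of these genes are known to be expressed at a low level, with microglia, endothelial cells and cells of the meninges among the types that respond to interferon.

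The element shows directly in the sequence in front of several members. The promoter windows of RefSeq for mouse assembly GRCm38.p6 hold 250 bases before and 50 bases after an annotated start, and 8 of the 9 members had one, Usp18 being the exception. They were searched on both strands for the core of the element, read as GAAA, 2 bases of any kind and GAAA again, or in reverse complement as TTTC, 2 bases and TTTC, and matches may overlap each other. A match was present in 6 of these 8 members, in 49 of 135 other interferon pathway genes with a window (36.3%) and in 1079 of all 27025 genes with a window (3.99%). The shorter core of the gamma-activated sequence, TTCNNNGAA, which is its own reverse complement, was found in 2 of the 8 members, Bst2 and Ifitm3, and in 9.55% of all genes. In Ifitm3 both kinds of match lay after the annotated start. Uba7 and Irf7 had no match to either core in their windows, which says only that these letters are not in this stretch.

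The last 150 bases before the start are shown for 5 members, because they set genes with a repeated core (Isg15, Ifit1 and Bst2) beside Mndal with a single match and Uba7 with none. Each is written 5′ to 3′ on the strand of its gene, with matches to the response element core in capitals.
Isg15, chr4:156200819-156200968, strand -: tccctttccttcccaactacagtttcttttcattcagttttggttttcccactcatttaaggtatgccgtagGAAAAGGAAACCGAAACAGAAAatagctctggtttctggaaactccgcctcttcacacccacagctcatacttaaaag
Ifit1, chr19:34640739-34640888, strand +: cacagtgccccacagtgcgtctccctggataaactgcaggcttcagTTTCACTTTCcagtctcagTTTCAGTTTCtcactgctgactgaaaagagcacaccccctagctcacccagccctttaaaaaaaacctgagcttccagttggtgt
Bst2, chr8:71537473-71537622, strand -: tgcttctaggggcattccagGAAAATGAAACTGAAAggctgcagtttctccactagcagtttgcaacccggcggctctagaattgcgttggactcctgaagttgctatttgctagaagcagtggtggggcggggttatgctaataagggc
Mndal, chr1:173880188-173880337, strand -: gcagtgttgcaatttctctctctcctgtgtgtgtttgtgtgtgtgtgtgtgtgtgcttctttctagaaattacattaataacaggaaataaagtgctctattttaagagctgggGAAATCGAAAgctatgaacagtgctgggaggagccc
Uba7, chr9:107975417-107975566, strand +: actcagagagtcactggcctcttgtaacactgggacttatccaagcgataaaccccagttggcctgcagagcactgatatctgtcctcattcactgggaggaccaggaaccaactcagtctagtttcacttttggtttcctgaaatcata
In Isg15, 3 overlapping matches form a run that begins 78 bases before the start. In Ifit1 the matches begin 104 and 85 bases before the start and read on the opposite strand, and in Bst2 an overlapping pair begins 130 and 124 bases before it. Mndal has a second annotated start with its own window, which also holds 1 match. A match is a description of the sequence and not evidence that the element is used in this tissue.

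**Figure D1:**
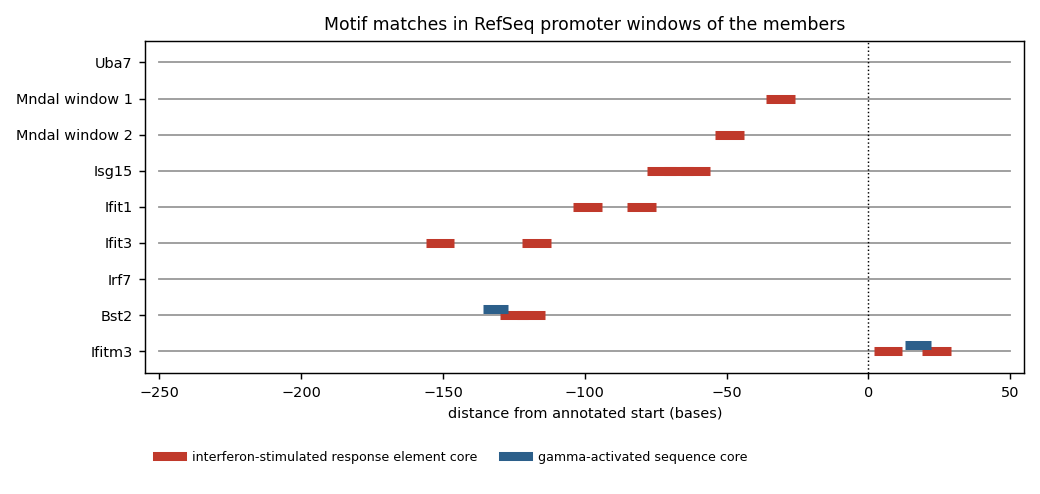
Positions of motif matches in the RefSeq promoter windows of 8 members, with the distance from the annotated start in bases on the horizontal axis and a line per window. Red bars mark the response element core and blue bars the gamma-activated sequence core, and the windows of Uba7 and Irf7 hold neither.

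Mndal had by far the largest age difference of the members and was higher at P5 in both genotypes. It encodes a protein of the HIN-200 family, interferon-inducible nuclear proteins that bind DNA. Its brighter probe set (1452231_x_at, at the 53.46th percentile of mean signal) read 1592, 4116 and 3380 in P5 knockout and 1594, 3329 and 1691 in P5 wild type, against 192, 357 and 397 in P0 knockout and 189, 209 and 367 in P0 wild type. Every P5 sample lay above every P0 sample, as in 3.85% of all probe sets over both genotypes and 10.1% in knockout alone, and at P5 the samples of a genotype differed among themselves by more than a factor of 2, with sample 1 lowest and sample 2 highest in both genotypes. The difference P5 minus P0, averaged over the genotypes, was 3.07 on the log2 scale (SE 0.30), or 8.37-fold. It was 3.13 in knockout and 3.0 in wild type (SE 0.42 each).

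The second Mndal probe set (1426906_at, 45.59th percentile) read 1074, 3492 and 3338 in P5 knockout and 1013, 2712 and 1031 in P5 wild type, against 39.3, 275 and 246 in P0 knockout and 115, 204 and 164 in P0 wild type. Again no P5 sample overlapped a P0 sample. The averaged log2 difference was 3.43 (SE 0.44), 10.7-fold, with 3.81 in knockout and 3.04 in wild type (SE 0.62 each). The size of these folds is uncertain, because the P0 levels of this probe set, 7.38 ± 1.34 in knockout and 7.43 ± 0.40 in wild type on the log2 scale (SD, n = 3 each), lie below 8.72, the 40th percentile of all probe sets.

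Both Mndal probe sets were designed from the same sequence record in the platform annotation, so they are not independent readings of the gene, and the suffix of the first marks probes that may also bind other transcripts. The HIN-200 genes are near-identical in parts, and the share of other family members in these signals is uncertain. Another probe set, 1452348_s_at, which carries the symbols Mndal, Ifi211, Ifi205 and Ifi204 and is no member, read 591, 959 and 1277 in P5 knockout and 446, 769 and 441 in P5 wild type, against 115, 231 and 425 in P0 knockout and 198, 103 and 161 in P0 wild type. Its averaged difference was 1.81 (SE 0.33), 3.49-fold. Among probe sets that name a single other member of the family, Ifi203 differed by 0.36 (SE 0.26; adjusted p = 0.446), while the dim Ifi202b differed by -1.47 (SE 0.49; adjusted p = 0.0682, limma for both).

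**Figure D2:**
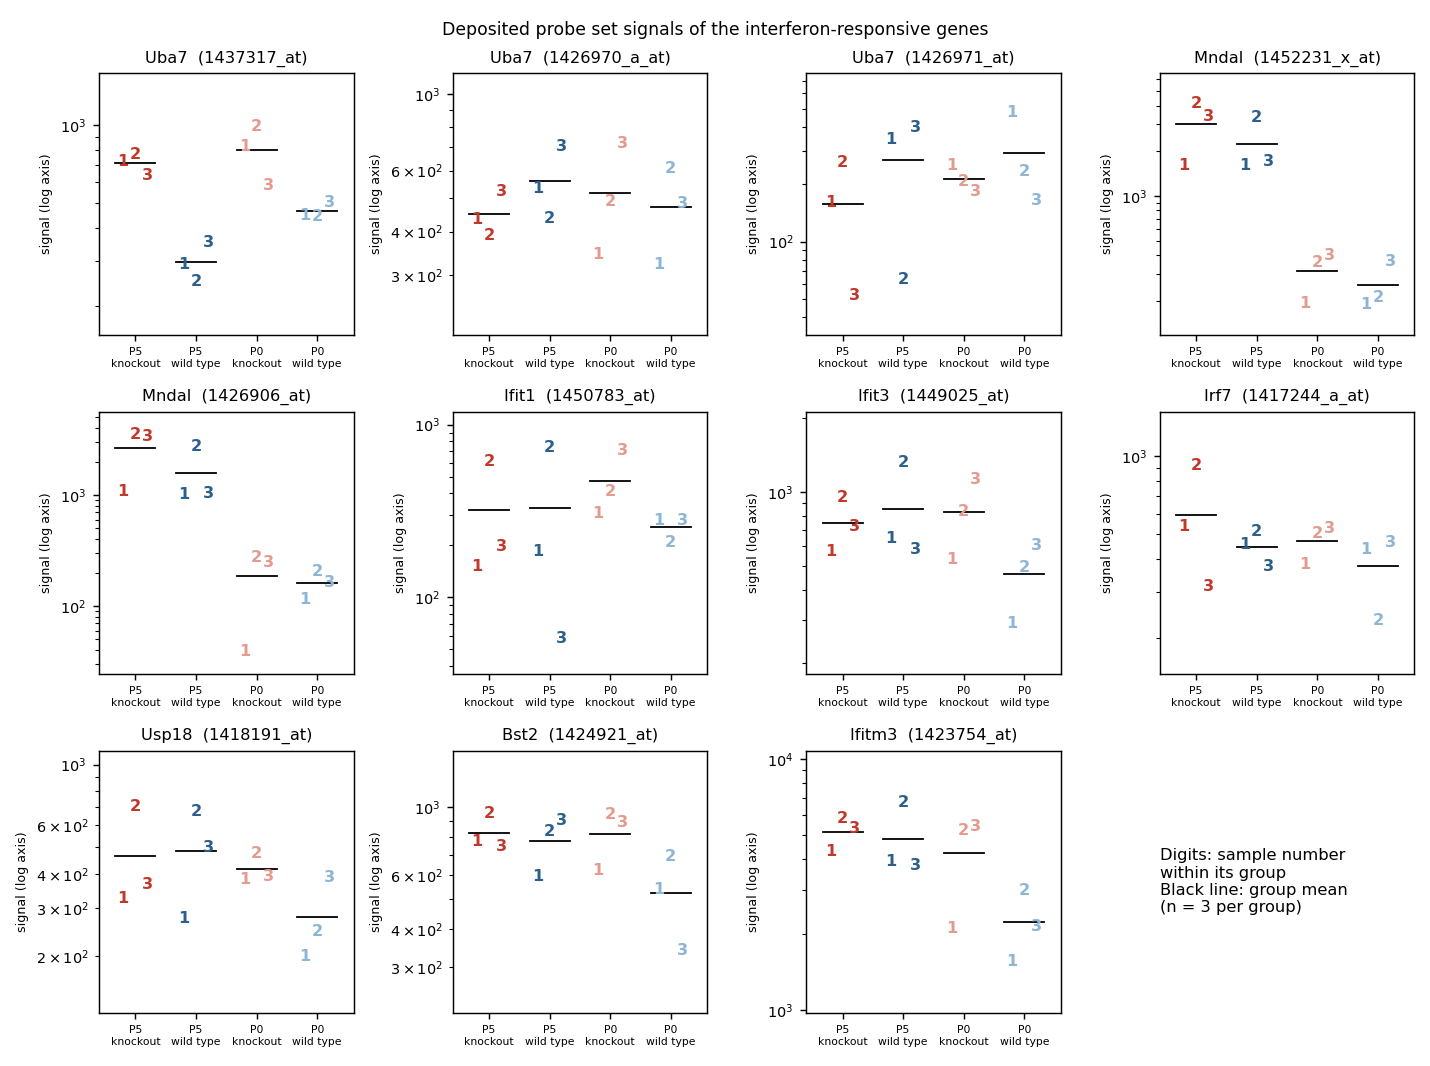
Deposited signal of each of the 11 member probe sets on a log axis, by group from P5 knockout to P0 wild type. Digits give the number of a sample in its group and black lines the group mean (n = 3), and in both Mndal panels all P5 samples lie above all P0 samples.

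Apart from Mndal, which was picked with its values in view, no member passed the threshold for age. With limma and Benjamini-Hochberg adjustment over 45037 probe sets, 2 of the 11 member probe sets had an adjusted p under 0.05 for P5 minus P0 averaged over the genotypes, both Mndal and both higher. Of all probe sets 11.7% passed this test, 5.85% as higher, and nothing is read from the count, since Mndal was picked with its values in view. The same 2 probe sets passed in knockout, where 3.5% of all did and 2.23% as higher, and in wild type, where 5.81% did and 3.28% as higher. Across the 11 probe sets the median averaged difference was 0.28, against -0.03 over all probe sets, and 8 of 11 were above 0.

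Ifitm3 came next by age. It encodes a membrane protein that blocks the entry of viruses into cells, and it was the brightest member, at the 80.02nd percentile of mean signal. It read 4283, 5787 and 5283 in P5 knockout and 3919, 6728 and 3747 in P5 wild type, against 2114, 5180 and 5368 in P0 knockout and 1563, 2991 and 2150 in P0 wild type. In wild type the ages did not overlap, as was so with P5 higher for 11.4% of all probe sets. In knockout they did overlap, because P0 knockout samples 2 and 3 read at P5 levels. The averaged difference was 0.74 (SE 0.25; 95% interval 0.21 to 1.27) at an adjusted p of 0.0682, with 1.11 (SE 0.35; adjusted p = 0.0803) in wild type and 0.38 (SE 0.35; adjusted p = 0.683) in knockout (limma). The averaged difference passed under 5 of 24 alternatives in limma (adjusted p = 0.00844 to 0.283 over the 24). Among them were leaving out sample 2 of P0 wild type (0.0232) or sample 3 of P0 knockout (0.043), array weights (0.0343) and the brightest probe set per gene after a filter (0.0399).

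Cell types in which Ifitm3 is known to be expressed also differed by age. Of the 14 meningeal and fibroblast markers with a probe set 7 passed as higher at P5, of the 11 endothelial markers 4 did and of the 15 microglial markers 8 did, against 8.13% of all genes, with none lower in these lists. The summed signal of the meningeal markers lay between 222352 and 238905 in P5 knockout, between 204039 and 240979 in P5 wild type, between 173772 and 203411 in P0 knockout and between 113306 and 131574 in P0 wild type. None of these markers was at 0, and their part in the Ifitm3 result was not tested. Higher values at P5 were not particular to these cell types. They passed for 8 of 8 oligodendrocyte, 6 of 8 astrocyte, 3 of 7 choroid plexus, 2 of 4 red blood cell and 2 of 13 lymphocyte and neutrophil markers. Of 8 neuronal markers 0 passed as higher and 3 as lower.

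The other effectors did not pass for age. Ifit1 and Ifit3 encode related proteins that bind viral RNA or act in complexes that do. Ifit1 (1450783_at, percentile 32.02) read 152, 611 and 196 in P5 knockout and 185, 739 and 57.8 in P5 wild type, against 307, 412 and 704 in P0 knockout and 277, 208 and 279 in P0 wild type. Its samples spread as widely within P5 as between the ages, and the averaged difference was -0.50 (SE 0.50; 95% interval -1.56 to 0.56; adjusted p = 0.589, limma).

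Ifit3 (1449025_at, percentile 49.82) read 574, 946 and 727 in P5 knockout and 645, 1324 and 583 in P5 wild type, against 530, 830 and 1121 in P0 knockout and 291, 495 and 607 in P0 wild type. The groups overlapped in both genotypes, with a difference of 0.34 (SE 0.28; 95% interval -0.25 to 0.94; adjusted p = 0.494, limma). Ifit genes lie side by side in the genome and resemble each other in sequence, so a part of these signals could be shared between copies.

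Bst2 encodes tetherin, a membrane protein that holds budding virus particles at the cell surface. It read 770, 956 and 744 in P5 knockout and 593, 835 and 903 in P5 wild type, against 622, 948 and 891 in P0 knockout and 538, 689 and 341 in P0 wild type (percentile 50.88). The averaged difference was 0.28 (SE 0.21; 95% interval -0.18 to 0.73; adjusted p = 0.469, limma), and P0 wild type held the lowest samples.

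Irf7, the transcription factor that amplifies interferon production, read 536, 922 and 314 in P5 knockout and 456, 510.2 and 375 in P5 wild type, against 382, 503 and 527 in P0 knockout and 438, 233 and 464 in P0 wild type (percentile 42.01). The ages overlapped in both genotypes, with a difference of 0.23 (SE 0.27; 95% interval -0.36 to 0.82; adjusted p = 0.663, limma). Without both P5 samples numbered 2, a setting chosen after seeing the data, it was -0.0069.

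In the Isg15 conjugation system no probe set passed for age. Usp18, which removes Isg15 from proteins and dampens receptor signalling, read 326, 701 and 366 in P5 knockout and 275, 676 and 499 in P5 wild type, against 381, 474 and 392.3 in P0 knockout and 199.6, 247 and 388 in P0 wild type (percentile 38.97). Its difference was 0.40 (SE 0.28; 95% interval -0.20 to 1.0; adjusted p = 0.415, limma). The probe set shared by Isg15 and Gm9706 read 451, 1009 and 610 in P5 knockout and 475, 778 and 296 in P5 wild type, against 880, 694 and 630 in P0 knockout and 957, 451 and 532 in P0 wild type. It differed by -0.25 (SE 0.26; adjusted p = 0.607, limma), and which of the 2 genes it reads is not known.

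Uba7, the enzyme that activates Isg15, gave 3 different pictures from its 3 probe sets. The brightest, 1437317_at at the 45.23rd percentile, read 726, 767 and 640 in P5 knockout, against 290, 249 and 353 in P5 wild type. At P0 it read 827, 988 and 584 in knockout, against 447, 446 and 504 in wild type. Every knockout sample lay above every wild-type sample of its age. Between the ages, wild type was lower at P5 without overlap, as in 13.3% of all probe sets, and the averaged age difference was -0.40 (SE 0.18; 95% interval -0.78 to -0.01; adjusted p = 0.183, limma).

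The knockout minus wild-type difference of this probe set was 1.25 (SE 0.26) at P5, or 2.38-fold, and 0.80 (SE 0.26) at P0, or 1.74-fold, on the log2 scale. This is the difference for which Uba7 was picked. It stayed between 1.05 and 1.40 at P5 over 25 alternatives and between 0.65 and 0.93 at P0.

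The other Uba7 probe sets did not share that separation. The one numbered 1426970_a_at, nearly as bright at the 43.52nd percentile, read 433, 390.4 and 524 in P5 knockout, against 535, 437 and 705 in P5 wild type, and 344, 489 and 717 in P0 knockout, against 323, 609 and 483 in P0 wild type. Its differences were -0.24 at P5 and 0.15 at P0 (SE 0.36 each), with both genotypes overlapping at each age. The dim 1426971_at, at the 24.15th percentile, read 160.1, 259 and 51.8 in P5 knockout, against 343, 63.4 and 397 in P5 wild type, and 252, 206 and 183 in P0 knockout, against 479, 233 and 164 in P0 wild type. Its differences were -0.56 and -0.29 (SE 0.67 each), again with overlap. The sources used here do not say which part of the gene each probe set reads, and 1426970_a_at and 1426971_at were designed from a single sequence record that differs from that of the first.

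At P0 the members were mostly higher in knockout than in wild type, as a description. Of the 11 probe sets 9 had a positive difference, with a median of 0.63 against 0.00 over all probe sets, and 0 passed the threshold, where 0.0111% of all probe sets did. Uba7 1437317_at, chosen by its genotype difference, is among the 9, so the count and the median are no independent evidence of a direction. The differences were 0.87 (SE 0.35) for Ifitm3, 0.86 (SE 0.39) for Ifit3, 0.82 (SE 0.70) for Ifit1, 0.72 (SE 0.30) for Bst2, 0.63 (SE 0.40) for Usp18 and 0.40 (SE 0.39) for Irf7. Only Uba7 1437317_at and Ifit1 separated the genotypes without overlap at P0, both with knockout higher, as did 5.4% of all probe sets. Mndal was at 0.32 (SE 0.42) and -0.05 (SE 0.62).

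The P0 median rested in part on P0 wild-type samples 1 and 2. Without both, which leaves 1 wild-type sample that is assumed to vary like the others, the median was 0.35 and 9 of 11 were still positive. Leaving out single samples gave medians between 0.41 and 0.74. Other tissues' markers differed at P0 as well. The summed signal of the 14 meningeal markers was 173772 to 203411 in knockout against 113306 to 131574 in wild type, that of the 4 red blood cell genes was 2932 to 4503 against 1181 to 2090, and that of the 15 microglial markers was 34371 to 43153 against 27263 to 38242. Of these lists 11, 4 and 12 members had a positive difference at P0, against 57.5% of all genes. In choroid plexus 5 of 7 did. Other lists had fewer, with 4 of 11 endothelial, 6 of 13 lymphocyte and neutrophil, 3 of 8 neuronal, 2 of 8 astrocyte and 2 of 8 oligodendrocyte markers. The part of these lists in the members' values was not tested.

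At P5 the direction between the genotypes depended on single samples. Of the 11 probe sets 7 had a positive knockout minus wild-type difference, with a median of 0.14 against 0.00 over all probe sets, and 0 passed, where 0.00444% of all did. Without P5 knockout sample 2 the median was -0.09 with 5 of 11 positive, and without P5 wild-type sample 2 it was 0.38 with 9 of 11 positive. Uba7 1437317_at was the only member to separate the genotypes at P5, with knockout higher, as did 6.3% of all probe sets. Mndal was at 0.45 (SE 0.42) and 0.73 (SE 0.62), Ifit1 at 0.38 (SE 0.70), Irf7 at 0.30 (SE 0.39), Ifitm3 at 0.14 (SE 0.35), Bst2 at 0.13 (SE 0.30), Usp18 at -0.01 (SE 0.40) and Ifit3 at -0.08 (SE 0.39). Microglial markers had a positive difference at P5 in all 15 genes, against 51.5% of all genes. Their summed signal was 48070 to 52307 in knockout against 40600 to 42363 in wild type. A positive direction was not particular to microglia, with 7 of 7 choroid plexus, 4 of 4 red blood cell and 7 of 8 astrocyte markers. It was found in 9 of 14 meningeal, 9 of 13 lymphocyte and neutrophil, 6 of 11 endothelial, 1 of 8 neuronal and 0 of 8 oligodendrocyte markers. The part of these lists in the members' values was not tested.

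Averaged over both ages 0 members passed, where 0.0111% of all probe sets did, and the median was 0.38. Whether the genotype difference depended on age was not resolved for any member. The interaction, the P5 difference minus the P0 difference, ran from -0.93 (SE 0.56) for Ifit3 to 0.78 (SE 0.88) for Mndal 1426906_at. It was below 0 for 8 of 11, and 0 members and 0% of all probe sets passed. With limma 0 members had an unadjusted p under 0.05, where 2243 of all probe sets did.

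**Figure D3:**
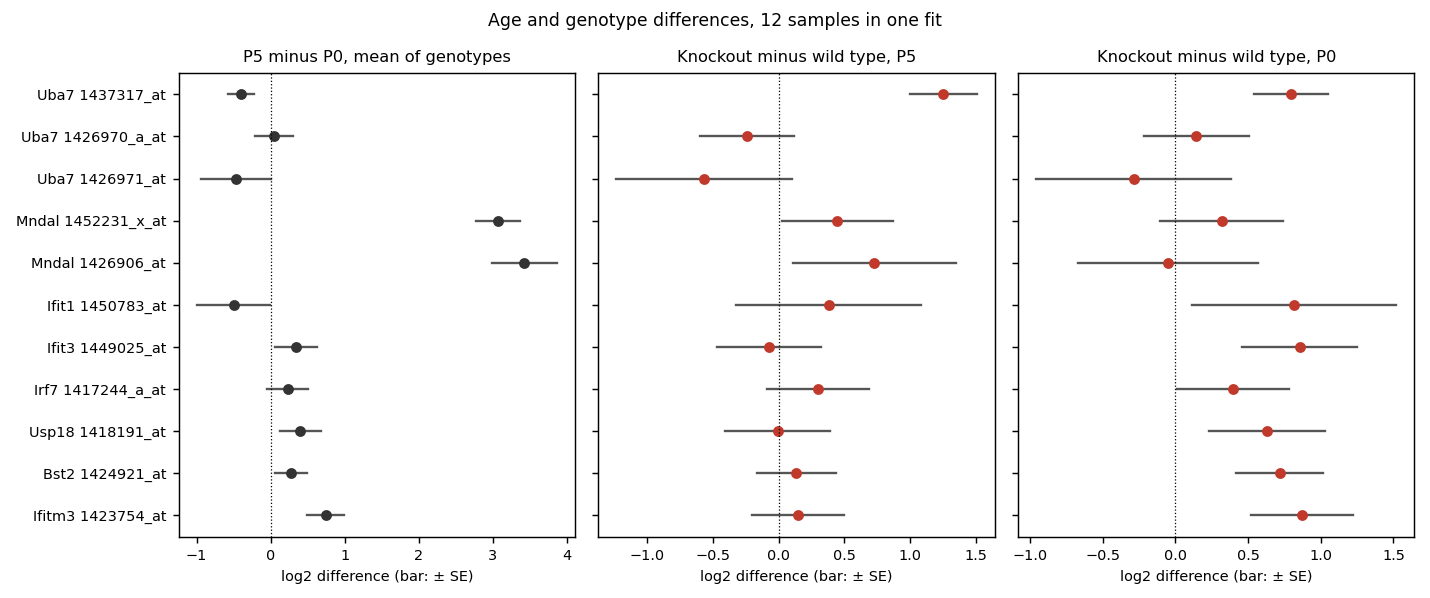
Log2 differences of the 11 member probe sets (points) with their standard errors (bars) from the fit to 12 samples, for P5 minus P0 averaged over genotypes and for knockout minus wild type at P5 and at P0. The Mndal probe sets stand at 3.07 and 3.43 for age, and Uba7 1437317_at stands apart from the other Uba7 probe sets between the genotypes.

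The members varied together between samples of a single group at P5. In P5 knockout, sample 2 held the highest normalized value of the 3 samples in 10 of 11 member probe sets, sample 3 in 1 and sample 1 in 0. Sample 2 held the highest value in 35.8% of all probe sets. In P5 wild type, sample 2 was highest in 7 of 11 and sample 3 in 4, while sample 2 was highest in 33% of all probe sets. At P0, sample 3 was highest in 8 of 11 in knockout and in 6 of 11 in wild type, against 35.5% and 30.1% of all probe sets. Sample 3 was also highest for 9 of 11 endothelial and 7 of 7 choroid plexus markers in P0 knockout, and for 4 of 11 and 5 of 7 in P0 wild type. It was highest for only 1 of 15 microglial markers in either genotype at P0. Of the meningeal markers it was highest for 3 of 14 in P0 knockout and 6 of 14 in P0 wild type. The part of these cell types in the members' values was not tested. The pattern is visible in the single values above, such as Ifit1 at 611 against 152 and 196 in the other P5 knockout samples, and at 739 against 185 and 57.8 in the other P5 wild-type samples.

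The interferon-induced GTPases, which attack the vacuoles of microbes inside cells and respond strongly to interferon gamma, showed the same sample most clearly. All 8 genes of this list with a probe set were highest in sample 2 of P5 knockout, and their summed signal there was 20719, against 6489 and 6452 in samples 1 and 3. In P5 wild type sample 2 held 8631, against 6052 and 6575, and was highest in 6 of the 8. The sums lay between 5713 and 7000 in P0 knockout and between 4335 and 5516 in P0 wild type. Igtp read 757, 5257 and 1046 in P5 knockout, against 1026, 1034 and 976 in P5 wild type. Gbp3 read 592, 2224 and 502 in P5 knockout, against 505, 1474 and 585 in P5 wild type, so that sample 2 was high in both genotypes for this gene. Other interferon lists, described below, differed. P5 knockout sample 2 was highest for 11 of 13 antigen presentation and 21 of 29 other interferon-responsive genes. It was highest for 14 of 21 antiviral effector, 9 of 15 receptor and signalling and 4 of 6 Irf genes. It was so for 4 of 8 Isg15 conjugation and related, 4 of 12 RNA sensing and 3 of 9 ligand genes. Of HIN-200 and DNA sensing genes it was 3 of 8 and of Ifitm genes 0 of 6, against 35.8% of all probe sets.

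The lists of cell type markers differed in whether sample 2 was highest. The 11 endothelial markers summed to 26788, 29790 and 29469 in P5 knockout and to 28367, 29740 and 26950 in P5 wild type. Sample 2 had the highest sum in both genotypes, but in P5 knockout samples 2 and 3 were close. Each of these was highest for 5 of the 11 markers there. The summed signal of 13 lymphocyte and neutrophil markers was 7038, 4194 and 6755 in P5 knockout samples 1, 2 and 3, lowest where the GTPases were highest, but 3895, 5962 and 4753 in P5 wild type, highest in sample 2. The 15 microglial markers summed to 50615, 52307 and 48070 in P5 knockout and to 42363, 42269 and 40600 in P5 wild type. The 4 red blood cell genes summed to 5411, 8227 and 5325 in P5 knockout and to 4864, 4086 and 6073 in P5 wild type. The 14 meningeal markers summed to 224485, 222352 and 238905 in P5 knockout and to 204039, 240979 and 217292 in P5 wild type. Their sum was lowest in sample 2 of P5 knockout and highest in sample 2 of P5 wild type. For oligodendrocyte markers sample 2 was highest in 6 of 8 in P5 knockout and 1 of 8 in P5 wild type. For choroid plexus it was 4 of 7 and 0 of 7, for neurons 4 of 8 and 1 of 8. For astrocytes it was 3 of 8 and 5 of 8. The part of these lists in the pattern was not tested. Without both P5 samples numbered 2, the median P5 genotype difference of the members was 0.09.

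**Figure D4:**
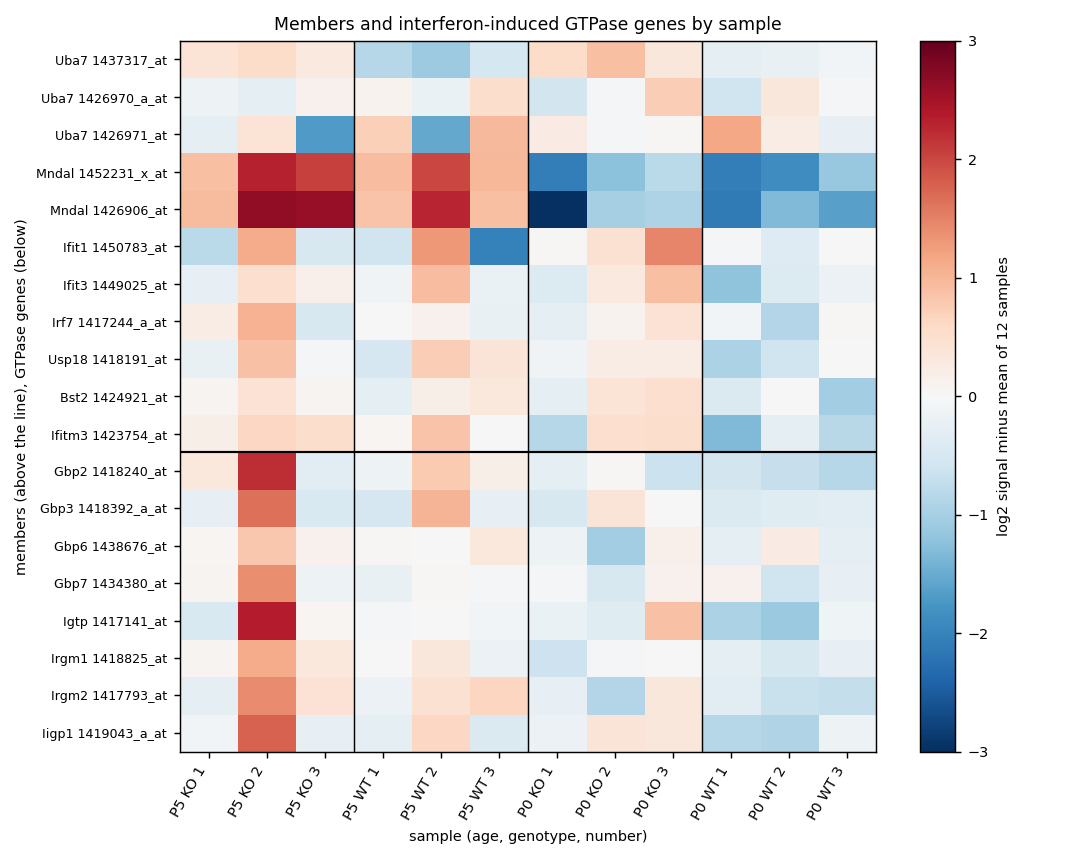
Log2 signal minus the mean of the 12 samples for the 11 member probe sets (above the line) and 8 interferon-induced GTPase genes (below), with samples in columns from P5 knockout to P0 wild type. P5 knockout sample 2 holds the highest value of its group in all 8 GTPase genes and in 10 of 11 member probe sets.

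Other genes of the interferon system were taken from lists for receptors, sensors, effectors and antigen presentation, each gene by its brightest probe set. Of 175 listed symbols 135 had a probe set. For age averaged over the genotypes 11 of these 135 were higher at P5 and 3 lower, 10.4% in all, against 15.7% of all 18193 genes (8.13% higher and 7.62% lower). Their median difference was 0.12, against 0.00 over all genes, and 67.4% were above 0, against 50.2% of all genes.

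The ligands lay near the bottom of the signal range. All 9 interferon genes with a probe set were below the 40th percentile, among them Ifnb1, and none passed. Of 15 receptor and signalling genes 2 passed, both lower at P5. They were Ifngr2, a chain of the interferon gamma receptor, at -0.49 (SE 0.11; adjusted p = 0.0103), and the receptor kinase Jak2 at -0.38 (SE 0.11; adjusted p = 0.0383, limma).

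Among transcription factors and sensors, Irf1 was higher at P5 by 0.45 (SE 0.13; adjusted p = 0.0427) as 1 of 6 genes of its family, and Tlr3, a receptor for double-stranded RNA, by 0.81 (SE 0.21; adjusted p = 0.0239, limma) as 1 of 12 RNA sensing genes. Of 21 antiviral effectors 3 were higher and 1 lower. Isg20, an RNA exonuclease, rose by 1.04 (SE 0.26; adjusted p = 0.0173), the zinc finger antiviral protein Zc3hav1 by 0.77 (SE 0.19; adjusted p = 0.0189) and Rsad2, or viperin, by 1.39 (SE 0.37; adjusted p = 0.0264). Rsad2 rested on uneven samples, with signals of 2426 ± 2325 in P5 knockout and 2152 ± 246 in P5 wild type, against 886 ± 410 in P0 knockout and 699 ± 212 in P0 wild type (SD, n = 3 each). Adar, the RNA editing enzyme, fell by 0.39 (SE 0.11; adjusted p = 0.0352, limma for each).

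The 29 other interferon-responsive genes held 5 that were higher at P5 and 0 lower. Nmi rose by 1.27 (SE 0.21; adjusted p = 0.0014), with signals of 1744 ± 132 in P5 knockout and 1610 ± 298 in P5 wild type, against 1041 ± 336 in P0 knockout and 463 ± 162 in P0 wild type (SD, n = 3 each). The membrane protein Ly6e rose by 0.76 (SE 0.14; adjusted p = 0.00225), the lysosomal thiol reductase Ifi30 by 0.57 (SE 0.15; adjusted p = 0.0215) and the ubiquitin ligase Dtx3l by 0.64 (SE 0.16; adjusted p = 0.0216, limma for each). The fifth was Ifi27, at 0.95 (SE 0.25; adjusted p = 0.0236, limma). Of 13 genes of antigen presentation 1 passed, B2m, the light chain of class I molecules, at 0.94 (SE 0.18; adjusted p = 0.00371). None of the 8 GTPases, 6 Ifitm genes, 8 genes of Isg15 and related conjugation or 8 HIN-200 and DNA sensing genes passed.

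Between the genotypes none of the 135 genes passed at P5, at P0 or on average over the ages, where 0.0055%, 0.022% and 0.0165% of all genes did. With limma 3, 20 and 13 of the 135 had an unadjusted p under 0.05, where 1419, 5403 and 3494 of all 45037 probe sets did. Nothing is read from these counts. At P0 74.8% of the 135 had a positive difference, against 57.5% of all genes, and at P5 60% against 51.5%. Among the 29 other interferon-responsive genes, the smallest p values for the average over both ages belonged to Ifi30 at 0.47 (SE 0.15), Nmi at 0.67 (SE 0.21), Rtp4 at 0.74 (SE 0.25) and Ifi35 at 0.61 (SE 0.24). Among the GTPases they belonged to Iigp1 at 0.67 (SE 0.33) and Igtp at 0.76 (SE 0.39). The P5 knockout samples of both were uneven, with Iigp1 at 546, 1965 and 475 and Igtp at 757, 5257 and 1046. These rankings hold within each list only. In the receptor and signalling list Socs3 was at 0.55 (SE 0.18), and the remaining lists are not ranked here.

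The genes most like the members over the 12 samples differed by member. Likeness was the root mean square difference between log2 profiles after each was centred on its own mean, over 12594 genes at or above the 40th percentile of signal. For the mean profile of the brightest probe sets of Ifit1, Ifit3, Irf7, Usp18, Bst2 and Ifitm3, the nearest gene was Rtp4, a chaperone of receptors that is itself induced by interferon, at 0.23. It was followed by Nbl1, Cpq, Gm20754 and H1f10, at 0.25 to 0.26. For Mndal 1452231_x_at the nearest were Ugt8a, which makes the galactolipids of myelin, at 0.52, the neuronal transcription factor Neurod1, the glial receptor Gpr37l1, the cohesin acetyltransferase Esco2 and the myelin protein Mag, at 0.56 to 0.59. These had averaged age differences of 2.54 to 3.21. For Uba7 1437317_at the nearest was Dapp1, an adaptor protein of lymphocyte signalling, at 0.32, with genotype differences of 0.70 at P5 and 0.76 at P0, followed by Cd163, Cenpo, Trpc7 and Snhg16, at 0.34 to 0.37.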

How the data were processed

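The values deposited by the authors are linear intensity signals per probe set, and the software that made them is not stated in the labels. Trimmed by 2% at either end, each array's mean was 2500.01, so arrays had been scaled to a shared level. No detection calls were used. The 64 control probe sets among 45101 did not enter the tests. Single symbols were available for 34945 of the others, several for 932 and none for 9160, from the platform annotation, which can be old.

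Signals were transformed as log2(signal + 16), which understates changes of dim genes, and quantile-normalized. Group means were estimated for 45037 probe sets over the 12 samples, dim ones included, with limma 3.58.1 in R 4.3.3 and an intensity trend (8 residual and 6.22 prior degrees of freedom). Adjusted p-values are Benjamini-Hochberg values over all probe sets. Folds are back-transformed log2 differences. The number of arrays limits the precision. On simulated data with 200 of 45037 probe sets changed, 53% of 2-fold and 91% of 4-fold changes were recovered for the averaged age difference, with 11 false calls. In the real data 5278 probe sets passed for that difference. The adjustment depends on this number, so the recovery for age in these data may differ. For knockout minus wild type 35% and 70% were recovered at P5 and 36% and 70% at P0.

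Members and gene lists were chosen with earlier results of these data known. Comparisons were P5 minus P0 and knockout minus wild type, within and averaged over the other factor, and their interaction. Named genes are all member probe sets and up to 4 genes per list with the smallest p past the threshold for age. For genotype, up to 4 with the smallest p are named from the other interferon-responsive genes and from the GTPases only. The 5 genes nearest in pattern are named too. Ifnb1, Ifi203, Ifi202b, Ifi27, Gbp3, Socs3 and marker genes were named after their values were seen. Same-numbered samples did not deviate together in all groups (correlations -0.12 to 0.41), so numbers were not treated as pairs. The highest correlations were between the genotypes at P0, 0.41 for samples 1 and 0.31 for samples 2. The remaining pairs lay between -0.12 and 0.15. Alternatives covered scaling, pseudocounts of 1 and 64, a filter at the 40th percentile, the samples in the fit, the empirical Bayes step, array weights, the replicate block and left-out samples.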

Additional observations from a re-analysis of the deposited data

How the results depend on the processing

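The 0 members past the threshold between knockout and wild type, at either age or on average, and in the interaction, stayed at 0 under all 24 or 25 alternatives, while the number of all probe sets past it at P0 ran from 0 to 2962. For age averaged over the genotypes 2 member probe sets passed, and 2 to 3 did under 24 alternatives. In wild type the count of 2 became 1 without a trend and without P0 wild-type samples 1 and 2. It also became 1 without P0 wild-type sample 1, P5 wild-type sample 2 or both P5 samples numbered 2, the last added after seeing the data, so that leaving out single samples gave 1 to 3. The probe sets counted are those of Mndal, with Ifitm3 where 3 are given and, averaged or in wild type, where only the brightest probe set of each gene was kept, and as Mndal was selected with its values in view, nothing is read from these counts. In knockout it was 2, and 1 with only the brightest probe set of each gene, since this keeps 1 Mndal probe set. With the replicate block the count was 3 in the averaged age difference and 3 in wild type, through Ifitm3 (limma, adjusted p = 0.00844 and 0.0118), and the block changed no other member's call. Same-numbered arrays correlated best for 6 of 12 arrays, so not every array was closest to its own number.

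Of 790 recomputed age differences of single probe sets 746 kept their direction and side of the threshold, 10 gained the call (all Ifitm3), 5 lost it (all Mndal 1426906_at in wild type) and 29 changed sign, none of them called. The cause was not tested. In knockout Bst2 was 0.0198 on the deposited scaling and Usp18 -0.0016 with array weights. Leaving out single samples gave a log2 difference of -0.26 to 0.13 for Bst2 1424921_at in knockout, -1.15 to 0.50 for Ifit1 1450783_at in wild type, -0.46 to 0.19 for Ifit3 1449025_at in knockout, -0.0779 to 0.61 for Ifitm3 1423754_at in knockout, -0.21 to 0.55 for Irf7 1417244_a_at in knockout, -0.0087 to 0.45 for Irf7 1417244_a_at in wild type, -0.45 to 0.20 for Uba7 1426970_a_at in knockout, -0.015 to 0.46 for Uba7 1426970_a_at in wild type, -0.11 to 0.22 for Uba7 1426970_a_at on average, -0.80 to 0.47 for Uba7 1426971_at in wild type and -0.25 to 0.29 for Usp18 1418191_at in knockout. Without P0 wild-type samples 1 and 2 it was 0.30 for Uba7 1426971_at and -0.0648 for Irf7, both in wild type. Without both P5 samples numbered 2 it was -0.0069 for Irf7 on average and -0.21 in knockout, 0.47 for Uba7 1426971_at in wild type and -0.25 for Usp18 in knockout. Of 1046 recomputed genotype and interaction values 41 changed sign and 6 moved by more than the spread within groups. Dim probe sets limit what can be seen: Ifit1, Usp18 and Uba7 1426971_at lie below the 40th percentile.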
